A study of Mus musculus with 2 samples.

Results

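Collagens, laminins and a set of other large matrix genes were examined as targets of Sap130 in the embryonic mouse heart. The genes were chosen by name alone: the 44 protein-coding genes of RefSeq build GRCm38.p6 whose symbols follow the collagen pattern (Col, number, a, number), the 11 laminin genes (Lama, Lamb and Lamc), and Fn1, Eln, Fbn1, Fbn2, Vcan, Postn and Hspg2, which makes 62 of 21779 protein-coding genes. The data are 1 Sap130 ChIP library from C57BL/6 hearts at stage E12.5, with peaks called by the authors against 1 Input library from hearts of the same strain and stage, prepared without antibody. The ChIP used 2 µg of a rabbit antibody against Sap130. The labels do not give the number of hearts, their genotype beyond the strain, or how the tissue was pooled, and there is no replicate of either library.

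The matrix between heart cells is built from sheets and fibres. Basement membranes are thin sheets under endothelium, epicardium and around muscle cells, made of laminin trimers (an alpha, a beta and a gamma chain), type IV collagen, and linkers such as perlecan. Interstitial matrix consists of collagen fibrils, fibronectin and elastic fibres, and fills the endocardial cushions from which the valves form. Sap130 belongs to the Sin3 complex, which carries histone deacetylases and acts as a corepressor at promoters. Its binding does not say whether a gene is active.

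A gene was called marked when a peak summit of the authors' list lay within 1000 bp of either of its boundaries, or anywhere inside it. The score of a summit is on a −log10 scale, of either p or q, as the authors deposited it. It ranks summits within this list and gives no fold over Input. The list held 14881 summits on nuclear chromosomes, with scores between 2.1 and 428 and a median of 33.3. With 1 library per group there is no test between groups, and depth is unknown. The intervals of shares below are exact (Clopper-Pearson) 95% intervals that cover counting error only. A summit at an end was found at 3 of 6 cardiomyocyte markers, 2 of 6 endothelial, 2 of 6 epicardial and fibroblast, and 0 of 6 blood markers, where 48.4% of all protein-coding genes had one. A binding map does not show which cells were in the sample, so the tissue label could not be checked from it.

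The bases before the starts of some of these genes are printed here. Each line gives the 250 bases before the annotated start, read from RefSeq promoters of build GRCm38.p6, 5′ to 3′ on the strand of the gene, with every CpG dinucleotide in capitals. Hspg2 and Col4a1 have summits at the start with scores among the highest of these genes, Col4a5 and Col4a6 start close to each other and face apart, and Col1a2 and Col3a1 have no summit. The last 2 were added as a contrast after their values were seen. Col8a2 and Col5a3, which have no summit but hold 24 and 17 CpG in this window, are not printed.
Hspg2 (perlecan), chr4:137468553-137468802, plus strand: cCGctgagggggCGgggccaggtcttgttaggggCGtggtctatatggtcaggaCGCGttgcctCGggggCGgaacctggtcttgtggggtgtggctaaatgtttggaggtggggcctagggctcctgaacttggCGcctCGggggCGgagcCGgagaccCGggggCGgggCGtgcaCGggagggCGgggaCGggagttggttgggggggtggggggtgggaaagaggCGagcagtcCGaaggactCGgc
Col4a1, chr8:11312827-11313076, minus strand: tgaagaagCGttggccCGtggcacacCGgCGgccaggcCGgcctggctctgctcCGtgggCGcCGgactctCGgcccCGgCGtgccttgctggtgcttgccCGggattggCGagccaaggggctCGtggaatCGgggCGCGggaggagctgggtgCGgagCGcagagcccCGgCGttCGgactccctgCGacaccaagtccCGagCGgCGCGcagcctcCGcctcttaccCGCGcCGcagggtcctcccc
Col4a5, chrX:141475169-141475418, plus strand: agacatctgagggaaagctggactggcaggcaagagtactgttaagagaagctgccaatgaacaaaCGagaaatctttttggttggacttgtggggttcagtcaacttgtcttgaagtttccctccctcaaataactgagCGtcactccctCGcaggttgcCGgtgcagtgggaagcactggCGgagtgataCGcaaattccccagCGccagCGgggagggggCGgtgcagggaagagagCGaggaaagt
Col4a6, chrX:141474077-141474326, minus strand: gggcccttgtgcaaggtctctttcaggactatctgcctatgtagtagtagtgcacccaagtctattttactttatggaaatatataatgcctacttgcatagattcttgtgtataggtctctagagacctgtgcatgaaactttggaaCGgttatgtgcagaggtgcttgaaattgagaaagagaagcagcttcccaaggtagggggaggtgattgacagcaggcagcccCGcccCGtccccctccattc
Col1a2, chr6:4505368-4505617, plus strand: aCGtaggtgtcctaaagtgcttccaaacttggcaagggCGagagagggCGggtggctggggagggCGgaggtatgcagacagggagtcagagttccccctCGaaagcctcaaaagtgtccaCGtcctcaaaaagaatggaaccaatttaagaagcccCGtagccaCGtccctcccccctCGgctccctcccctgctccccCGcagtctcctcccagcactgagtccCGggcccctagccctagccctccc
Col3a1, chr1:45311288-45311537, plus strand: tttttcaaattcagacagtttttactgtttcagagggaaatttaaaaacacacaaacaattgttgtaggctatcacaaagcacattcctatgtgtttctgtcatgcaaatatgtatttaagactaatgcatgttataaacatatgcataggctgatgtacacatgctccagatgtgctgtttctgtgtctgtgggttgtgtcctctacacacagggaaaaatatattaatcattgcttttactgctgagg
These windows hold 20 CpG for Hspg2, 31 for Col4a1, 10 for Col4a5, 3 for Col4a6, 11 for Col1a2 and 0 for Col3a1.

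Sap130 marked a minority of the matrix genes, mostly with low scores. A summit lay at an end of 24 of 62 genes (38.7%, interval 26.6 to 51.9), against 48.4% of all protein-coding genes. Counting summits inside the gene as well, 26 of 62 were marked (41.9%, 29.5 to 55.2), against 55.0% of all protein-coding genes. The share of all genes lay inside the first interval and just inside the second. Curated genes outside the olfactory and vomeronasal families had shares of 53.5% and 60.7%, above both intervals. The median of the best scores at an end was 25.1 for the matrix genes (quartiles 10.7 and 45.5), against 49.3 for all genes with a summit at an end (quartiles 23.7 and 79.4). The median of all genes was reached by 6 of the 24: Lamb2, Lamc1, Hspg2, Fbn2, Col4a1 and Col4a2.

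The 3 kinds of gene differed in their counts. Collagens had a summit at an end in 14 of 44 cases (31.8%, 18.6 to 47.6), an interval that ends below the 48.4% of all genes. That gap was lost without summits shared with another protein-coding gene, at 27.3% (upper bound 42.8) against 36.4% of all genes. It was also lost at starts alone, with 11 of 35 (31.4%, 16.9 to 49.3), against 47.6%. With a window of 500 bp the gap stayed (interval 11.5 to 37.8, against 42.3% of all genes). With 2500 bp the all-gene share of 52.6% lay just above the interval (22.4 to 52.2). Merging summits within 500 bp and the stricter score limits also kept the share of all genes above the collagen interval. Laminins had one in 6 of 11 (54.5%, 23.4 to 83.3) and the other matrix genes in 4 of 7 (57.1%, 18.4 to 90.1), so that the intervals of these small groups include both the collagen share and the share of all genes. The median best score was 12.45 for collagens, 34.4 for laminins and 48.9 for the others. When summits shared with a neighbouring protein-coding gene were left out, the medians were 10.6 for collagens and 25.1 for laminins, against 44.7 for all genes. Summits also in reach of a gene that is not protein-coding were kept.

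**Figure D1:**
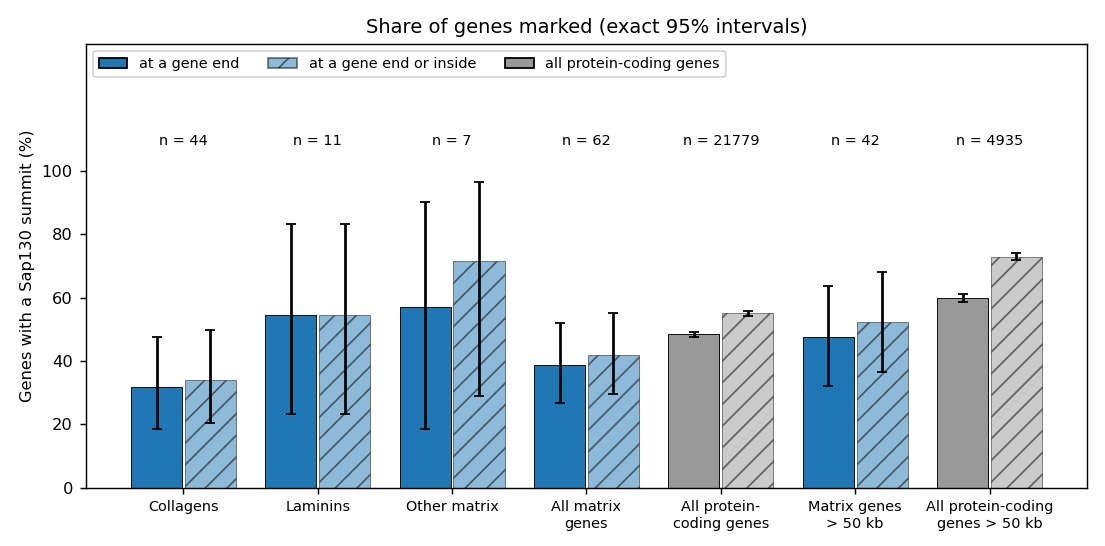
Share of genes with a Sap130 summit, in percent, at an end (filled bars) and at an end or inside (hatched bars), with exact 95% intervals; blue bars are the matrix genes and grey bars all protein-coding genes. The collagens stand lowest at 31.8%, and the long matrix genes at 47.6% stand below all long genes at 59.8%.

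Matrix genes are long, with a median length of 106452 bp against 17217 bp for all protein-coding genes, and long genes were marked more often. Among 42 matrix genes above 50000 bp in length, a summit at an end was found in 20 (47.6%, 32.0 to 63.6), against 59.8% of all protein-coding genes of that length. With inside summits the count was 22 of 42 (52.4%, 36.4 to 68.0), against 72.9%, which lies above the interval. Of the 20 shorter matrix genes, 4 had a summit at an end (interval 5.73% to 43.7%), against 45.0% of all genes of up to 50000 bp, again above the interval. Among curated genes outside the olfactory and vomeronasal families, the share with a summit at an end was 53.5%.

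**Figure D2:**
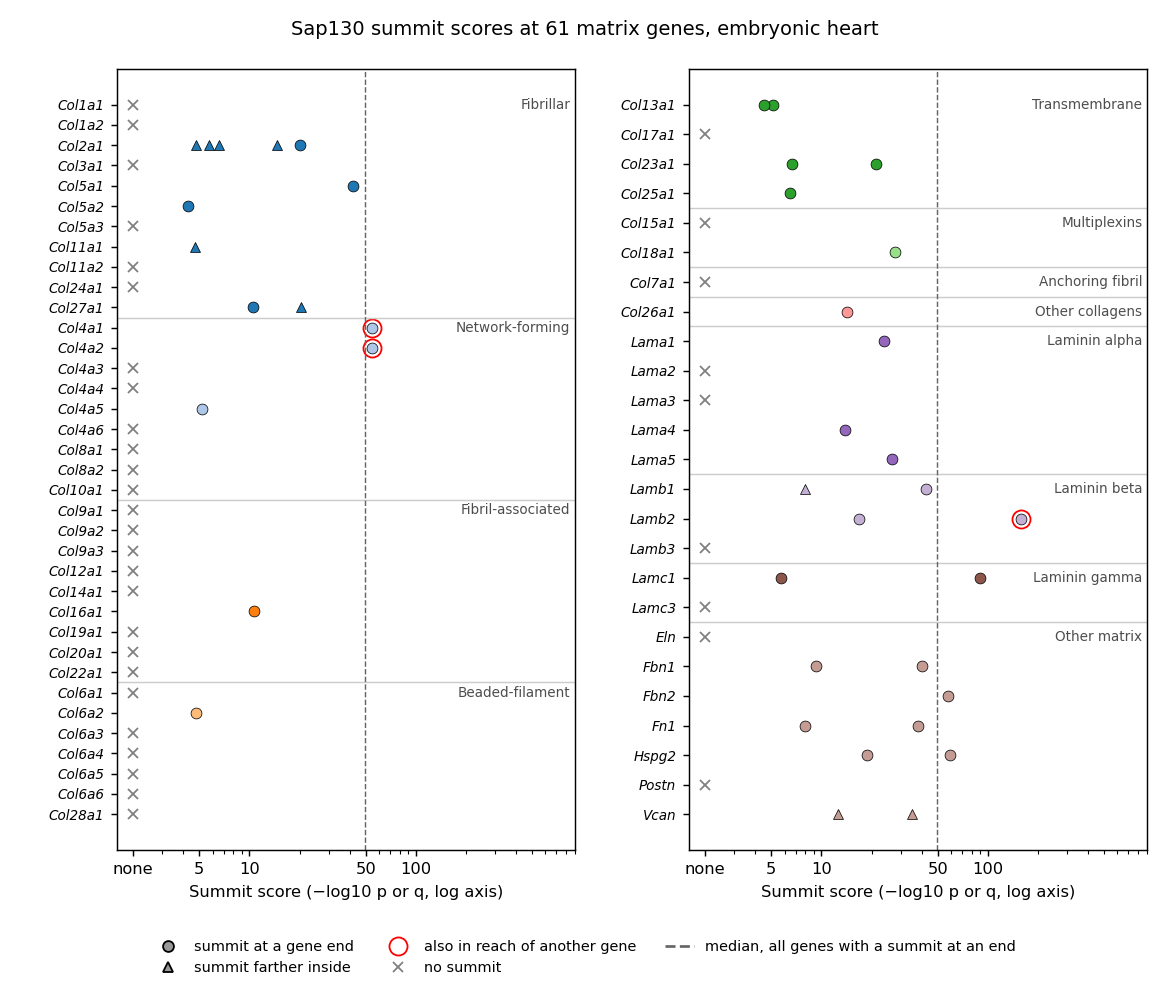
Score of each Sap130 summit (−log10 p or q, log axis) at 61 of the 62 matrix genes, grouped by role. Circles are summits at a gene end, triangles summits farther inside, and crosses genes with no summit. Red rings mark summits at an end that are also in reach of another protein-coding gene. The dashed line is the median of 49.3 over all genes with a summit at an end. Genes with a summit right of the line are Lamb2, Lamc1, Hspg2, Fbn2, Col4a1 and Col4a2, and the other 18 genes marked at an end lie left of it.

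Among the laminins, the genes of 1 gamma, 2 beta and 3 alpha chains were marked. Summits were found at Lamc1, Lamb1, Lamb2, Lama1, Lama4 and Lama5, chains of the laminins of embryonic, vascular and most other basement membranes. Lamc1, the gamma chain shared by most laminins (chr1:153218922-153332786), had a summit of score 90.0 lying 295 bp inside the gene and a weaker one of 5.74 lying 648 bp outside. That score was higher than those of 81.0% of all genes with a summit at an end. Lamb1, the beta chain of early embryonic laminins (chr12:31265146-31329644), had 42.5 at 376 bp inside and 7.93 at 1640 bp inside. The alpha chains had lower scores. Lama5, the broadest alpha chain of adult vessels and epithelia, had 26.4 at 236 bp inside, Lama1, of the earliest embryonic basement membranes, had 23.8 at 299 bp inside, and Lama4, of endothelium and muscle, had 13.9 at 449 bp inside.

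The highest score among all 62 genes, 158, was counted for Lamb2 (chr9:108479847-108490530) but lay 438 bp outside its far end, in reach of the neighbouring gene Usp19, and cannot be given to Lamb2 alone. At its own start Lamb2, a beta chain of vessel and muscle basement membranes, had a summit of 16.8 lying 167 bp inside.

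No summit was found at or in Lama3 and Lamb3, chains of epithelial basement membranes, nor in Lama2, the alpha chain of muscle laminin, nor in Lamc3. Lama2, at 635907 bp the longest of the 62 genes, had its nearest summit 457348 bp away, the farthest of all. Lamc3 was the nearest miss, with a summit of 48.9 lying 1348 bp outside, in reach of the neighbouring gene Aif1l.

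Type IV collagen, the network of basement membranes, is encoded by 6 genes in 3 pairs whose members lie head to head, and the pairs differed. Col4a1 (chr8:11198423-11312889) and Col4a2 (chr8:11312805-11449287), the chains found in nearly all basement membranes, overlap by 85 bp in the annotation and share 1 summit of score 54.7. It lies at position 11313034, 208 bases before the start of Col4a1 and thus within the sequence printed for it, and 229 bases downstream of the start of Col4a2. Col4a5 (chrX:141475370-141689236) and Col4a6 (chrX:141165403-141474095) have 1274 bp between them. The only summit near them, of score 5.17, lay 382 bases downstream of the start of Col4a5 and 1706 bp outside Col4a6, so that Col4a6 was not marked.

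Col4a3 and Col4a4, chains of the mature kidney, lung and inner ear, overlap by 114 bp and had no summit within 5000 bp of their shared boundary. A summit of 61.4 lay 2970 bp beyond the other end of Col4a3, in reach of the gene Mff. The other network-forming collagens, Col8a1, Col8a2 and Col10a1, had no summit, with the nearest 17590, 7182 and 21271 bp away, so that 3 of the 9 network-forming genes were marked.

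**Figure D3:**
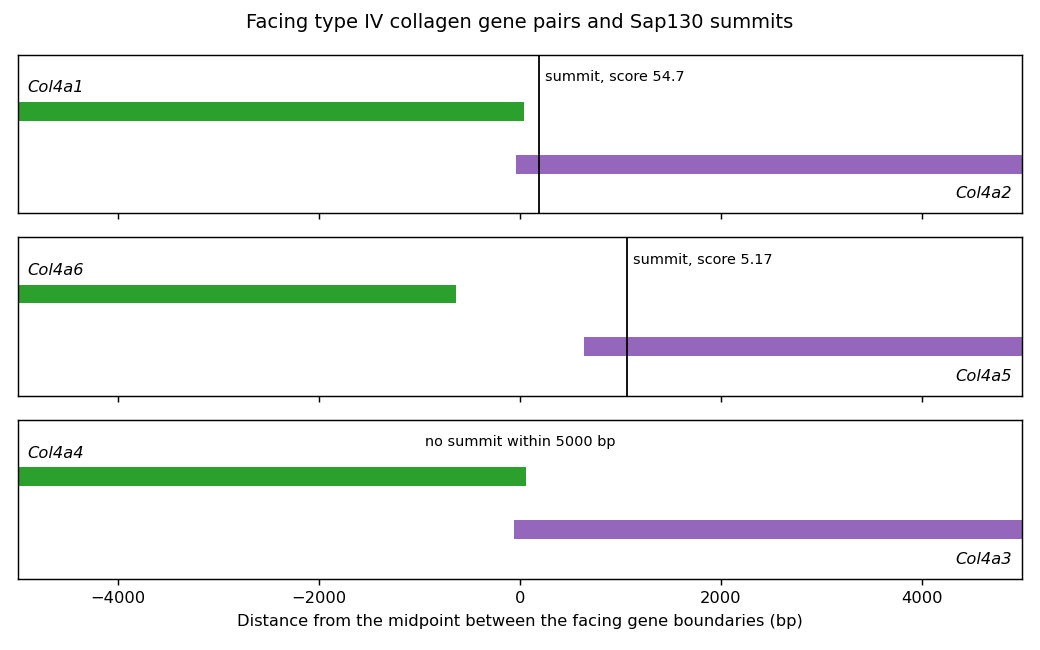
Gene bodies (bars) of the 3 type IV collagen pairs over 10 kb, by distance in bp from the midpoint between their facing boundaries, with Sap130 summits as vertical lines. Col4a1 and Col4a2 share a summit of 54.7, Col4a5 has 5.17, and none is drawn for Col4a4 and Col4a3.

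Fibrillar collagens, which build the striated fibrils of connective tissue, carried a summit at an end in 4 of 11 genes and farther inside in 1 more. The genes of type I and type III collagen, Col1a1, Col1a2 and Col3a1, the main fibrils of the interstitium, had none, with the nearest summits 36695, 60020 and 152581 bp away. The highest score was at Col5a1 (chr2:27886381-28039510), a chain of the type V collagen that starts fibril assembly, with 42.0 at 263 bp inside. Its partner chain Col5a2 had only 4.27, the lowest score of all marked genes, at 995 bp inside, just within the limit. Col5a3 had none.

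Col2a1 (chr15:97975602-98004724), the cartilage collagen that is also found in embryonic valve tissue, held the most summits of any matrix gene. Its 5 summits lay 200, 1100, 1481, 2073 and 2629 bp inside the same boundary, with scores of 20.2, 6.56, 5.72, 4.75 and 14.7. Col27a1 had 10.5 at 272 bp inside, which is 1131 bases before its annotated start. A higher 20.5 lay at 1773 bp inside, which is 370 bases downstream of that start. Only the summit of 10.5 lies within 1000 bp of the boundary, so it is the one counted at the start. Col11a1 had 1 summit of 4.68 at 1281 bp inside. Col11a2 and Col24a1 had none.

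Few fibril-associated and beaded-filament collagens were marked. Of the 9 fibril-associated collagens, which coat fibrils, only Col16a1 had a summit, of 10.7 at 153 bp inside, and Col9a1, Col9a2, Col9a3, Col12a1, Col14a1, Col19a1, Col20a1 and Col22a1 had none. Col22a1, a collagen of tissue junctions, had its nearest summit 417742 bp away. Of 7 beaded-filament and related genes, Col6a2 alone had a summit, of 4.75 at 308 bp inside. Its partner chains Col6a1 and Col6a3 had none, nor did Col6a4, Col6a5, Col6a6 and Col28a1.

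Among the 4 transmembrane collagens, 3 were marked. Col23a1 had 21.2 at 487 bp inside and 6.65 at 65 bp inside, Col25a1 had 6.51 at 775 bp inside, and Col13a1 had 5.15 and 4.52 at 908 and 182 bp inside. Col17a1, the hemidesmosome collagen of epithelia, had none. A further summit of 50.9 lay 1055 bp beyond the far end of Col23a1, outside the limit, in reach of the gene Phykpl. Of the multiplexins, which lie in vessel basement membranes, Col18a1 (chr10:77052178-77166530), the source of endostatin, had 27.8 at 530 bp inside, and Col15a1 had none. Col26a1 had 14.2 at 509 bp inside, and Col7a1, of the anchoring fibrils of skin, had none.

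The other matrix genes had the highest median score of the 3 kinds. Hspg2, perlecan, a heparan sulfate proteoglycan of basement membranes (chr4:137468751-137570630), had 59.3 at 250 bp inside and 18.8 at 349 bp outside. Fbn2 (chr18:58008623-58210572) and Fbn1 (chr2:125300594-125506485), the fibrillins of elastic microfibrils, had 57.3 at 192 bp inside and 40.4 at 340 bp inside, and Fbn1 had another of 9.26 at 335 bp outside. Fn1, fibronectin (chr1:71585473-71653280), had 37.9 at 247 bp inside and 7.99 at 473 bp outside. Vcan, versican, a proteoglycan of the endocardial cushions (chr13:89655309-89743027), had no summit at an end but 2 inside, of 34.94 and 12.54, at 3476 and 1973 bp from its boundary. Eln, elastin, and Postn, periostin, a matrix protein of cushions and valves, had none, with the nearest summits 14135 and 302002 bp away.

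Positions of summits at an end are limited by the rule to 1000 bp from a boundary. Summits farther in, such as that of 20.5 at 1773 bp in Col27a1, do not enter the next counts. Of the 24 genes marked at an end, 22 had the best of these summits inside the gene. It lay at a median of 303 bp from the boundary, with a range from 153 to 995 bp. The exceptions were Col4a1 and Lamb2. The same share was not computed for all genes. At 5 genes, Col16a1, Fbn2, Fn1, Lama5 and Lamb1, the summit was also within 1000 bp of a boundary of a gene that is not protein-coding. It cannot be given to the matrix gene alone. Strand was known for the 44 genes with an entry in the promoter table. Of these, 16 had a summit at the boundary where the gene starts (36.4%, 22.4 to 52.2), against 47.6% of 17492 protein-coding genes with such an entry, and 0 had one at the far end alone, against 152 of those 17492. Their best summit at the start lay at a median of 229 bases downstream of the outermost annotated start (quartiles 181 and 296), against 180 bases for all genes (quartiles 99 and 247). It lay downstream in 14 of 16 cases (87.5%), near the 80.5% of all genes.

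**Figure D4:**
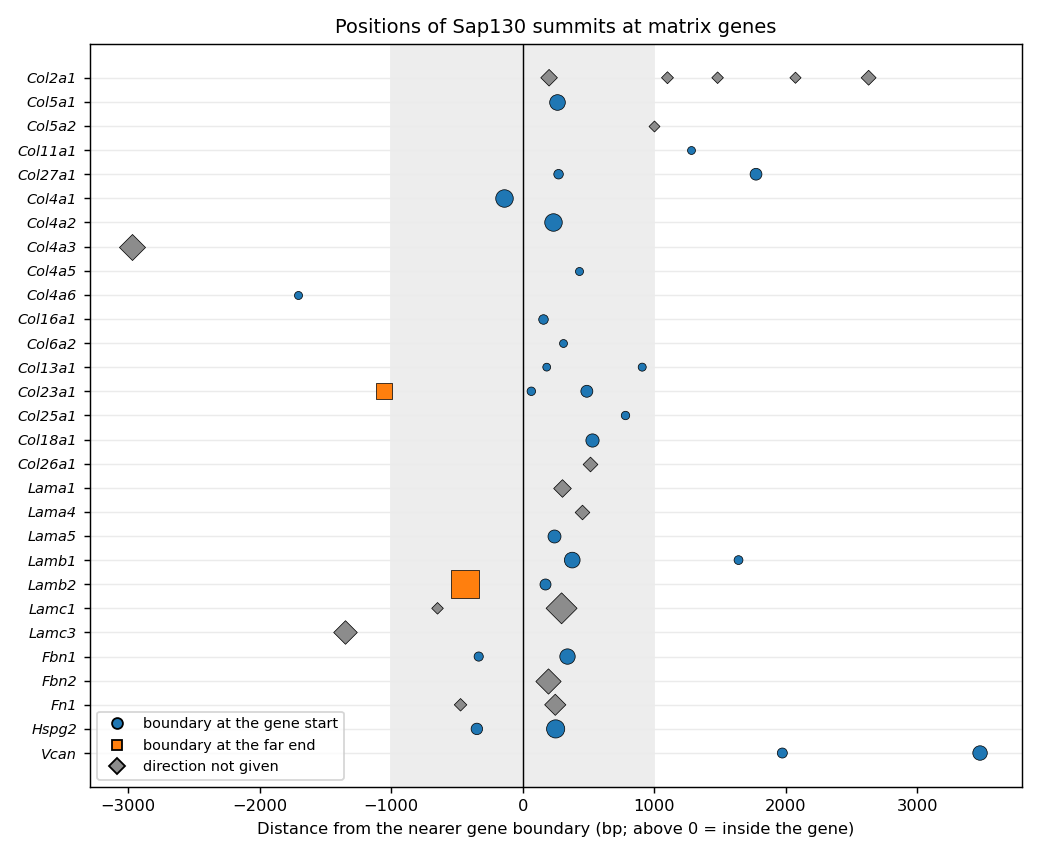
Position of each summit relative to the nearer gene boundary, in bp, with positive values inside the gene and the grey band within 1000 bp; symbol area grows with the score, and shape gives whether that boundary is the start. Best summits at an end that lie inside the gene sit 153 to 995 bp from the boundary, where the rule allows up to 1000 bp. Col2a1 holds 5 over 2629 bp, and Lamb2 has a large one outside its far end.

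Despite their length, the matrix genes held no summit more than 4000 bp inside. The 62 genes span 7.75 Mb, and the farthest summit from a boundary was that of Vcan at 3476 bp. Beyond 4000 bp from both boundaries, a limit chosen after seeing this, 0 summits lay in 7.26 Mb of 61 genes, which allows up to 0.413 per Mb (3 counts). All protein-coding genes had 1.90 per Mb there, with 7.92% of 14931 genes holding one. Beyond 10000 bp the counts were 0 in 6.55 Mb, against 1.45 per Mb for all genes. The matrix genes are counted in both sets, and genes of other kinds that lie within a gene add summits to it.

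Marked starts were richer in CpG. Among the 44 genes with an entry, the 250 bases before the start held a median of 18 CpG (range 3 to 31) in the 16 genes with a summit at the start, against 6 (range 0 to 24) in the 28 without. The ratio of observed to expected CpG had medians of 0.670 and 0.348 in these groups. All protein-coding genes showed the same order, with medians of 18 and 3 CpG. With 15 or more CpG, 10 of 12 matrix genes had a summit at the start (83.3%), against 82.8% of all genes. With 5 to 14 it was 5 of 19 (26.3%), against 52.5% of all genes, and with 0 to 4 it was 1 of 13 (7.69%), against 5.51%.

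The exceptions were few. Col8a2 with 24 CpG and Col5a3 with 17 had no summit, while Lamb2 had one with 3 CpG. Genes without a summit and with sparse CpG included Col3a1, Lama2, Col9a1 and Col28a1 with 0, and Postn, Col6a1 and Col6a3 with 3. Among the marked starts, those with most CpG, Col4a1 (31), Col5a1 (28) and Col4a2 (26), had scores of 54.7, 42.0 and 54.7. Col4a1 and Col4a2 share 1 summit. Those with least, Lamb2 (3), Col6a2 (6) and Col4a5 (10), had 16.8, 4.75 and 5.17 at the start. Between them the scores showed no clear order. Col18a1 (12), Fbn1 (13) and Lamb1 (14) had 27.8, 40.4 and 42.5. Col27a1 (15), Col25a1 (18) and Col23a1 (18) had 10.5, 6.51 and 21.2. Lama5 (19), Hspg2 (20), Col16a1 (21) and Col13a1 (24) had 26.4, 59.3, 10.7 and 5.15. The 6 CpG of Col6a2 belong to its outermost start. Its other annotated start has 14 CpG, and the summit of Col6a2 lies 82 bases downstream of that start. These windows and the summits mostly do not coincide, since 14 of the 16 summits lie downstream of the start. GC content moved with CpG, with medians of 64.0% in the 16 genes with a summit and 56.8% in the 28 without, and its part in the recovery of fragments was not tested.

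**Figure D5:**
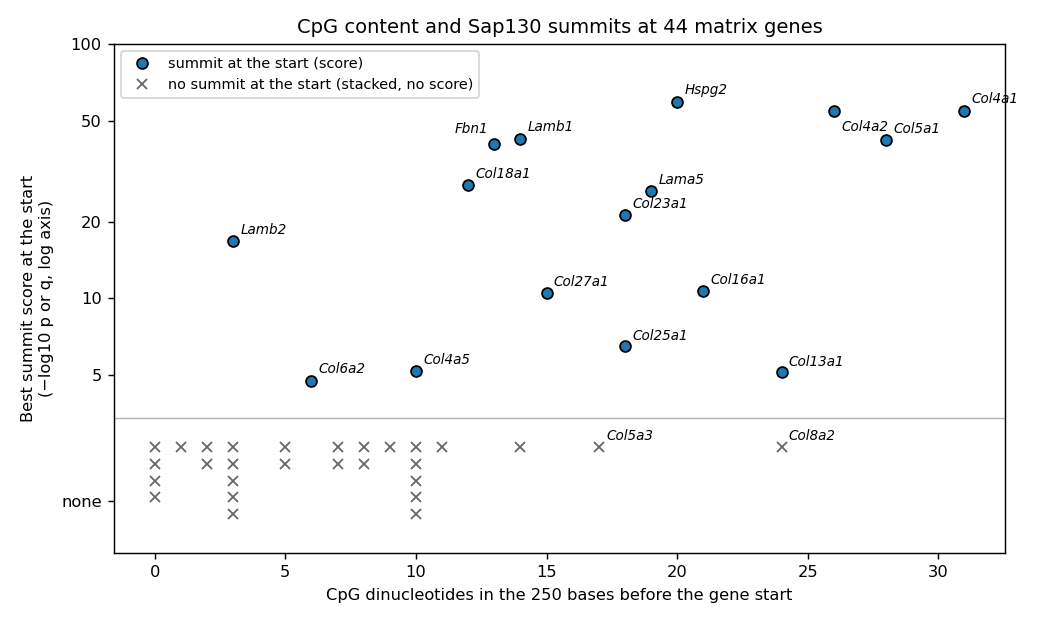
Best Sap130 summit score at the start (−log10 p or q, log axis) against the number of CpG in the 250 bases before the start, for the 44 matrix genes with a promoter entry; circles are genes with a summit and crosses, stacked below the line with no score, genes without. Above 14 CpG all but Col5a3 and Col8a2 have a summit.

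Short motifs were also counted in these 250 bases. GGGCGG, the letters of a GC box, on either strand, was in 13 of the 16 starts with a summit (81.2%) and 13 of the 28 without (46.4%). Over all protein-coding genes the same split was 65.0% with a summit and 22.5% without. CCAAT on either strand was in 7 of 16 and 7 of 28, against 37.0% and 36.0% over all genes with and without a summit. TATAAA on the gene's strand in the last 40 bases was in 0 of 16 and 1 of 28, Col10a1, against 0.997% and 5.12%. CACGTG, a palindrome, was in 0 of 16 and 0 of 28, against 9.13% and 4.41%. GGGCGG holds a CpG and so is not independent of the CpG counts.

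Genes that make, bind or degrade the same matrix were counted by the same rule. Of 32 genes for collagen processing, 23 had a summit at an end (71.9%, against 48.4% of all genes), with a median score of 32.2 (49.3 for all genes). The highest were P4hb, the beta subunit of prolyl hydroxylase (141), and Plod3, a lysyl hydroxylase (94.9, shared with Znhit1). Mia3, which loads collagen for export, followed (80.8). Lox and Loxl2 were among the genes with none. Of 23 matrix receptors, 13 had one (56.5%, median 20.9), led by Dag1, the laminin receptor dystroglycan (124), and the integrins Itgb1 (70.9) and Itga6 (65.9), with none at Ddr2 or Itga10. Other basement membrane and matrix genes had 14 of 35, a share near the 38.7% of the 62 genes (median 23.9). They were led by Agrn, agrin (158), Ntn1, a netrin (51.0), and Ltbp1 (44.9), with Acan and Bcan among the genes with none. Matrix-degrading enzymes and their inhibitors had 9 of 17 (52.9%, median 20.5), led by Mmp15 (82.0), Timp2 (61.2) and Mmp14 (32.5). No summit was found at Adamts4 or Mmp13. In each list the genes named as having none are examples, and no pattern by function was tested among them.

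The 36 unmarked genes had a median distance of 38848 bp to the nearest summit, against 90947 bp for all 9807 unmarked protein-coding genes. Only 7678 of the 9807 are curated genes outside the olfactory and vomeronasal families, and no distance was computed for these alone. In 15 of the 36 (41.7%) the nearest summit was more than 50000 bp away, against 61.0% of all unmarked genes. The nearest misses were Lamc3, Col4a6, Col4a3 and Col11a2, at 1348, 1706, 2970 and 6973 bp, and the farthest were Col6a5, Postn, Col22a1 and Lama2, at 186381 to 457348 bp.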

How the data were processed

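ChIP-seq of Sap130 gave 1 peak list, called by the authors from 1 ChIP library against 1 Input library. The submitters' processing notes name Bowtie 1.1.2, MACS2 2.1.0.20140616 and build GRCm38 (mm10). No setting, threshold or treatment of duplicate reads is given in the sources used here. The authors deposited, for each 1-base summit, a score read from its layout and values as a −log10 value, of p or q, with no statement of which. It grows with depth as well as enrichment. Of 14886 entries, the 14881 on nuclear chromosomes were used.

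Gene boundaries came from a RefSeq table of GRCm38.p6. Genes on the mitochondrial genome, on no named chromosome, or, except on Y, with a start below 3 Mb (taken as scaffolds) were left out. Exons and introns were not analysed here. Strand, starts and sequence came from RefSeq promoters of the same build, which matched 44 of the 62 genes. With several starts the outermost was used for CpG, motifs and medians of distance, and the nearest for the distance of a single summit. Assignment of summits was tested on simulated summits. Alternatives were windows of 500 and 2500 bp, higher score limits, merging of summits within 500 bp, leaving out shared summits, and starts only. Shared summits are those in reach of 2 or more protein-coding genes. Matrix genes were described by role, and 1 that enters the counts is not reported here. Genes, lists and rules were chosen with earlier results of these data known. Computation used Python 3.11.15, numpy 2.4.6, pandas 2.3.3, scipy 1.17.1 and matplotlib 3.10.9.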

Additional observations from a re-analysis of the deposited data

How the results depend on the processing

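Windows of 500 and 2500 bp, merging of summits within 500 bp, leaving out shared summits, and starts alone kept the shares at an end (all matrix genes, collagens, laminins) and the median score within the 95% interval of the reported value. The share at an end or inside did so too, but was not computed for starts alone. For the median score the interval is 10.7 to 42.5, read from the ranked best scores of the 24 genes with a summit at an end. Alternatives were not run for the other matrix genes, for single roles, or for the share at an end or inside among long genes. The window of 500 bp gave 20 of 62 genes with a summit at an end (32.3%, against 42.3% of all genes) and that of 2500 bp gave 28 (45.2%, against 52.6%). Without summits shared between protein-coding genes, which takes away the summit of Col4a1 and Col4a2, the share was 35.5%, near the 36.4% of all genes. Genes above 50000 bp alone, a choice added after seeing the data for summits at an end, gave 47.6%.

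Stricter scores leave fewer summits and moved most values. With summits at or above the median score, 16.1% of the matrix genes had one at an end (interval 8.02 to 27.7). The 31.6% of all genes lay above that interval. The share at an end or inside was 17.7% (36.0% of all genes), and 6.82% of the collagens had a summit at an end. The laminin share fell from 54.5% to 27.3% (31.6% of all genes), still within its wide interval of 23.4 to 83.3 from 11 genes. The median best score was 54.7 (68.8 for all genes). At or above the upper quartile of 65.2, the shares were 3.23% at an end and 3.23% at an end or inside (17.3% and 19.5% of all genes), 0.0% for collagens and 18.2% for laminins, with a median score of 124 over Lamb2 and Lamc1 alone, the first through its shared summit. No paired analysis was possible because each group holds 1 library. The depth of the libraries is unknown, so absent summits may lie below the detection limit.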
